A study of Rattus norvegicus with 13 samples.

Results

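The genes described here are those of the unfolded protein response and of protein folding in the endoplasmic reticulum (ER), measured in rat articular chondrocytes given glucosamine, interleukin-1β (IL-1β) or both. They were chosen by name as 42 genes in 5 roles: sensors and signalling, chaperones and their partners, disulfide isomerases and oxidases, ER-associated degradation, and secreted or calcium-handling ER proteins. The choice was made with earlier results of these data known. Of the 42 genes, 40 had at least 1 probe set of their own, 55 probe sets in all, of 31042 probe sets on the array, 29263 of which were tested and stand for 13748 genes with a probe set of their own. Ern1, which encodes the sensor IRE1α, and Derl3, a derlin, had none and are named only. All 40 measured genes entered the test, although Edem3 rose above the lower limit set for the signal on only 3 of 13 arrays.

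When unfolded proteins build up in the ER, the membrane sensors PERK (Eif2ak3), IRE1α and ATF6 become active. PERK slows translation through eIF2α and favours ATF4 and its target CHOP, IRE1α splices Xbp1 mRNA into the form that encodes an active transcription factor, and ATF6 is cut by the proteases S1P and S2P to release one. These factors raise the genes for chaperones, oxidoreductases and the machinery that returns misfolded proteins to the cytosol for degradation. Chondrocytes secrete large amounts of collagen and proteoglycan, which are folded and modified in the ER.

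Chondrocytes came from the femoral head cartilage of male Wistar rats aged 2 months, were pooled, and were used at second passage in monolayer. The groups were 20 mM glucosamine for 20 hours with 10 ng/ml IL-1β over the last 14 hours (4 arrays), 20 mM glucosamine alone for 20 hours (2 arrays), 10 ng/ml IL-1β alone for 14 hours (4 arrays), and untreated cells (3 arrays). Each array held RNA of its own flask, but all flasks were seeded from 1 pool of cells, so the p-values measure the spread between flasks and arrays only. Values are the deposited linear signal intensities. Fold changes come from a linear model on log2 intensities over all 13 arrays (limma), with values under 5.71 raised to that floor, and a gene was called up or down at an adjusted p under 0.05 over all 29263 probe sets.

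All 7 measured chondrocyte markers were above the floor on every array, although Matn1 averaged at most 43.7 in any group. Of the 7, none was called up and 6, 2 and 6 were called down against untreated cells with glucosamine plus IL-1β, glucosamine alone and IL-1β alone. Acan averaged 168, 259.7, 35.1 and 240.2 and Hapln1 167, 284, 75.9 and 662 with glucosamine plus IL-1β, glucosamine alone, IL-1β alone and in untreated cells. The summed intensity of the 7 measured chondrocyte markers of 8 lay between 5679 and 6818 with glucosamine plus IL-1β, 7242 and 7589.5 with glucosamine alone, 5136 and 6226 with IL-1β alone, and 9409.9 and 10663 in untreated cells. The 3 leukocyte markers summed to 7.33 to 74.3, 35.2 to 45.1, 145 to 230 and 4.45 to 7.89 in the same order of groups, with 1, 0 and 1 of the 3 called up against untreated cells. Most of that signal was Cd68, while Ptprc averaged at most 8.18 and Itgam at most 1.41 in any group. The 2 measured endothelial markers of 3 summed to 9.44 to 40.2, 8.55 to 11.2, 17.2 to 67.9 and 5.52 to 8.12, and Pecam1 was called up with IL-1β alone (log2 fold change 1.91, adjusted p = 0.011). Since RNA came from whole cultures, fewer cells of a type and less RNA per cell cannot be told apart, and the part of these shifts in the results below was not tested. The replicate d arrays of the glucosamine plus IL-1β and IL-1β groups spread further below 0 than the others, with 1st percentiles of -36.8 and -31.0 against -6.47 to -4.81 elsewhere.

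Promoter sequences show which of the genes hold the letters known to recruit the ATF6 and XBP1 factors. RefSeq promoters (GRCr8 build, 250 bases before to 50 after each start) were found for 33 of the 42 genes, and both strands were searched for the ER stress response element (ERSE), which is CCAAT, any 9 bases and CCACG, and for its second form (ERSE-II), which is ATTGG, any 1 base and CCACG. An ERSE was present in 22 of 33469 promoters (0.0657%), belonging to 21 genes, 9 of which are genes of this set. An ERSE-II was present in 17 promoters (0.0508%), 3 of them from this set. The sequences below are shown for genes with large responses to glucosamine, for Hspa5 as the best known chaperone of the pathway, and for Xbp1, whose mRNA did not pass the test. The match is in capitals, with up to 20 flanking bases in lower case, 5′ to 3′ on the strand of the gene.
Hspa5 ERSE, chr3:38452953-38453011: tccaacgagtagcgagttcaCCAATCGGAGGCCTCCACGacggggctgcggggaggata
Dnajc3 ERSE, chr15:102432514-102432572: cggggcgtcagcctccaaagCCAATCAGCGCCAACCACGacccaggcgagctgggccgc
Creld2 ERSE, chr7:121789219-121789277: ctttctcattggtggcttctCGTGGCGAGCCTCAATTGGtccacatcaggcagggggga
Ero1b ERSE, chr17:92941438-92941496: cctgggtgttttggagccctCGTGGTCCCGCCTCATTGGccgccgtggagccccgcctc
Xbp1 ERSE, chr14:84604538-84604596: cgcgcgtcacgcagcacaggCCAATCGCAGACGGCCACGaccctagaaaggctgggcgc
Hyou1 ERSE-II, chr8:53602674-53602724: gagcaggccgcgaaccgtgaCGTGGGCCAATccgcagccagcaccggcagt
Hyou1 ERSE-II, chr8:53602774-53602824: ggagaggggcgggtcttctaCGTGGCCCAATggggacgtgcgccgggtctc
Herpud1 ERSE-II, chr19:10614801-10614851: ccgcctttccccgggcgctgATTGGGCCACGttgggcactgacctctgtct
Dnajb11 ERSE-II, chr11:91672800-91672830: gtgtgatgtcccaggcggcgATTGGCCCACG

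Hspa5, Dnajc3, Xbp1, Herpud1 and Dnajb11 held the element in the forward direction, whereas Creld2, Ero1b and both copies in Hyou1 read as its reverse complement. Calr, Canx, Derl3 and Hsp90b1 also held an ERSE, in Hsp90b1 at 2 places. The promoter of Hyou1 was the only one of this set with the letters TGACGTGG, the XBP1-binding UPRE core that was present in 199 promoters (0.595%), and there it overlapped the first ERSE-II. The C/EBP-ATF element TTGCATCA, which CHOP and ATF4 bind, was found in 266 promoters (0.795%), those of Herpud1 and Ppp1r15b among them. Of the 12 genes with an ERSE or ERSE-II, 11 were measured and 10 were called up with glucosamine alone against untreated cells. The median log2 fold change of the 11 was 1.03. Among the 21 genes with a promoter and neither element, 11 were called up and the median was 0.68. Elsewhere in the genome, 12 other genes held an ERSE, of which 9 were measured and 1 was called up and 1 down, and 14 other genes held an ERSE-II, of which 8 were measured and 3 were called up. By comparison, 1215 of 11360 measured genes with a promoter were called up. In Creld2, Ero1b and Herpud1 the match lay inside the annotated span of the gene, so the promoter start used was not the outermost one. A match gives letters in the window, and no binding was measured.

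**Figure D1:**
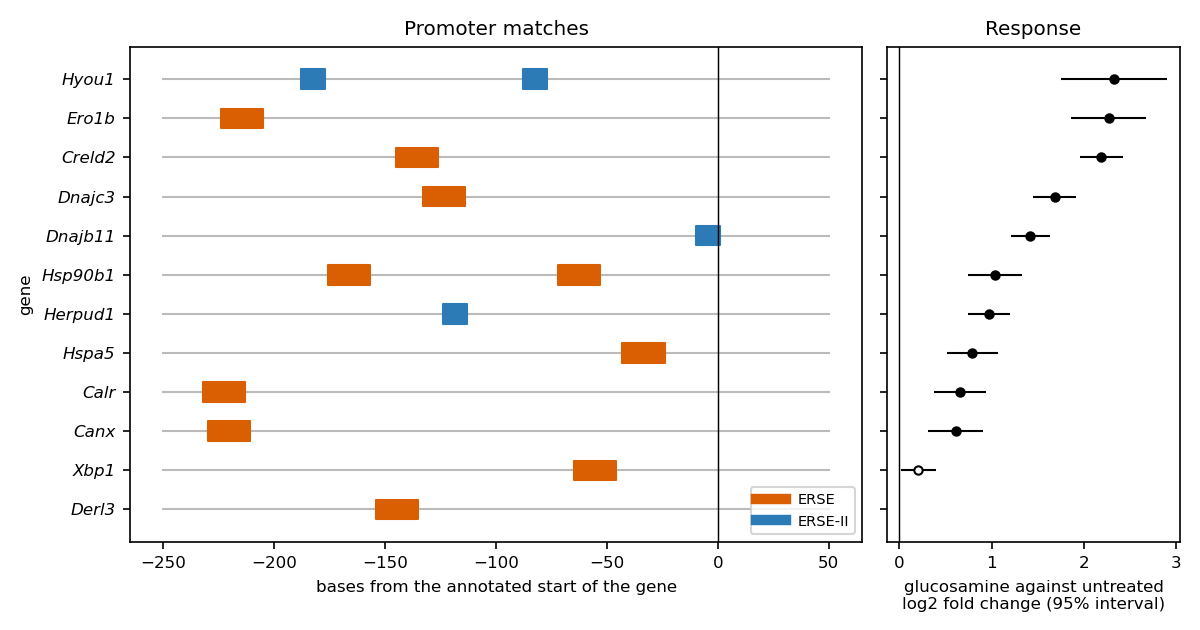
Positions of the ERSE and ERSE-II matches in bases from the start used for the promoter (left) and the log2 fold change of the gene, glucosamine alone against untreated, with its 95% interval (right; filled, adjusted p under 0.05; open, not called). For Creld2, Ero1b and Herpud1 that start lies inside the annotated span of the gene. Of the 11 measured genes, 10 were called up and Xbp1 was not, and Derl3 had no probe set.

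Glucosamine alone raised 26 of the 40 measured genes and lowered none. Over all probe sets tested, 7.14% were called up and 7.56% down. Counted by gene, 1424 of 13748 were called up and 1288 down. Shares for the other comparisons are over all probe sets, including those with no gene listed, and not by gene. The folds of the 26 genes ranged from 1.34 to 5.08 with a median of 2.12, and 15 of them were at least 2-fold higher. In all 26 both glucosamine arrays lay above the 3 untreated arrays. With so few arrays the 2 groups did not overlap in 37 of the 40 genes, called or not. The share without overlap over all probe sets was not counted. The median log2 fold change of the 40 genes was 0.68, beside 0 over all probe sets. By role, 3 of 9 sensors and signalling genes, 9 of 9 chaperones, 4 of 7 disulfide isomerases and oxidases, 7 of 11 degradation genes and 3 of 4 secreted or calcium-handling proteins rose. All 26 were also called up with glucosamine plus IL-1β against the same 3 untreated arrays, so the 2 comparisons are not independent. The map of values by array shows these genes as a block over the 6 arrays with glucosamine.

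**Figure D2:**
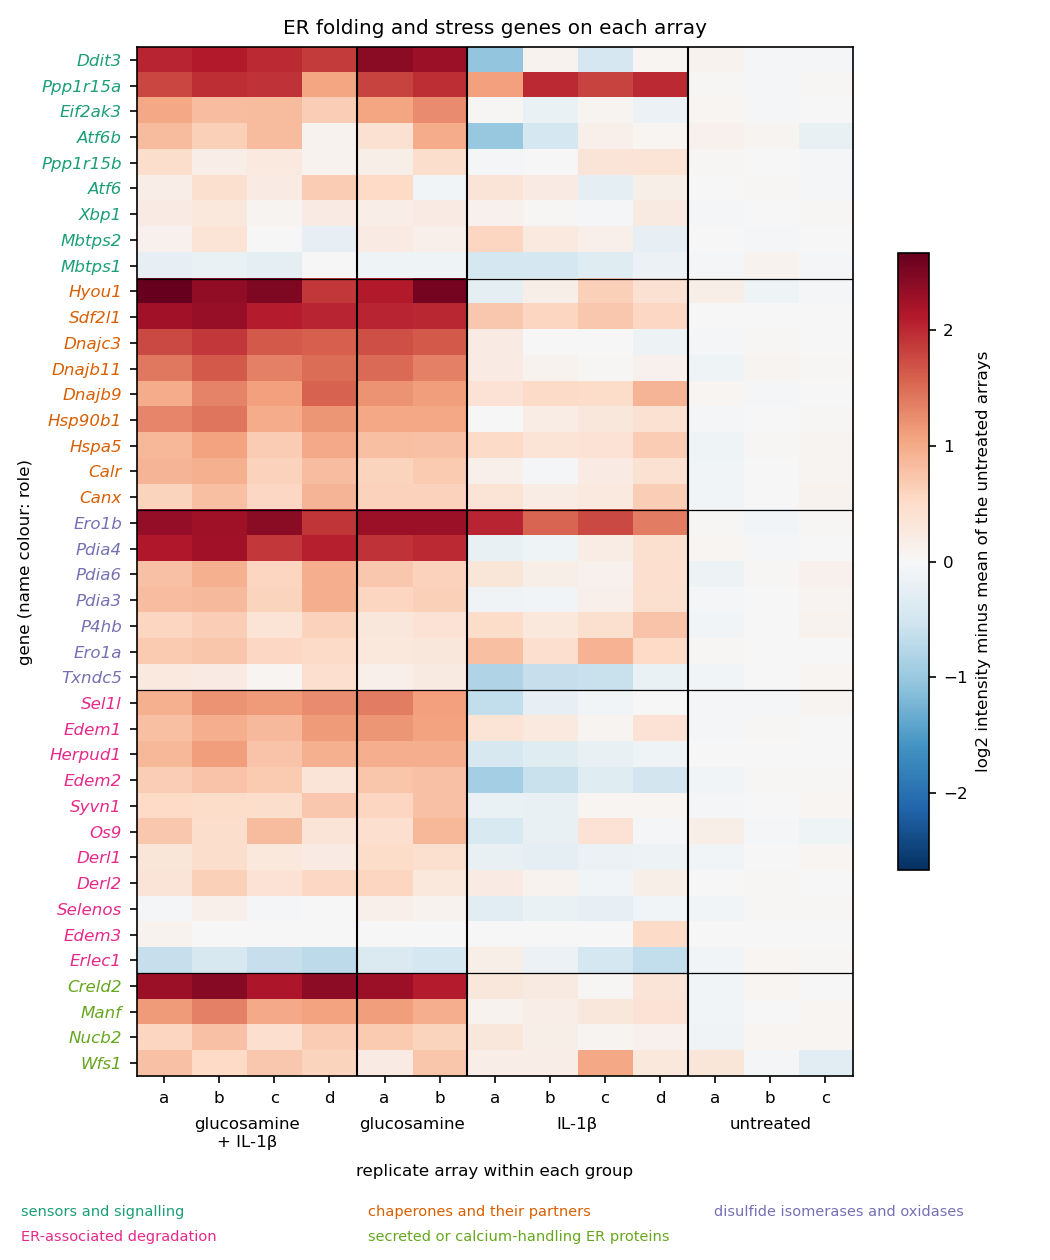
Log2 intensity of each measured gene on each array minus its mean over the untreated arrays, with genes grouped by role (name colour) and arrays grouped by treatment. Chaperones were higher on all 6 glucosamine arrays than on the untreated arrays, and 4 of 9 were also called up with IL-1β alone. Ppp1r15a and Ero1b had the largest rises with IL-1β alone.

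Among the sensors and signalling genes, Ddit3 encodes CHOP, the transcription factor at the end of the PERK branch. Its intensities were 1325, 1404, 1280.5 and 1181 with glucosamine plus IL-1β, 1729 and 1576 with glucosamine alone, 157, 347, 237 and 336 with IL-1β alone, and 345, 313 and 317 in untreated cells. The arrays with glucosamine stood far above the rest and did not overlap them, and glucosamine alone was 5.08-fold above untreated (log2 fold change 2.35, SE 0.26, adjusted p = 9.2e-05). Eif2ak3, the sensor PERK itself, read 567, 495, 499 and 441 with glucosamine plus IL-1β, 579 and 667 with glucosamine alone, 283, 245, 294 and 248 with IL-1β alone, and 286, 273 and 275 in untreated cells. Again both groups with glucosamine lay above both groups without it, and the fold for glucosamine alone was 2.23 (log2 fold change 1.16, SE 0.11, adjusted p = 2.9e-05).

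Ppp1r15a, which encodes GADD34, the stress-induced subunit that directs a phosphatase to eIF2α, measured 408, 465, 456 and 248 with glucosamine plus IL-1β, 414 and 468 with glucosamine alone, 254, 475, 415 and 477 with IL-1β alone, and 121, 115 and 122 in untreated cells. Here all 3 treated groups were above the untreated cells and overlapped one another. Glucosamine alone was 3.68-fold higher than untreated (adjusted p = 9.4e-04), and IL-1β alone 3.29-fold (adjusted p = 2.4e-04). Its constitutive relative Ppp1r15b gave 172, 141, 150.3 and 134 with glucosamine plus IL-1β, 138 and 172 with glucosamine alone, 120.3, 123, 158 and 161 with IL-1β alone, and 128, 125 and 123 in untreated cells. Glucosamine arrays lay above untreated ones, but the difference did not pass the test (log2 fold change 0.30, 95% interval -0.03 to 0.64, adjusted p = 0.27).

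None of the other 6 genes of this role was called with glucosamine alone. Atf6, the sensor cut in the Golgi, had 286, 339, 293 and 404 with glucosamine plus IL-1β, 365 and 240.4 with glucosamine alone, 319, 293, 209 and 281 with IL-1β alone, and 254, 257 and 244 in untreated cells, with overlap between glucosamine alone and untreated cells (log2 fold change 0.24, 95% interval -0.22 to 0.69, adjusted p = 0.68). Atf6b, its close relative, had 93.3, 80.3, 92.3 and 55.4 with glucosamine plus IL-1β, 68.9 and 102 with glucosamine alone, 25.7, 37.3, 56.5 and 53.5 with IL-1β alone, and 56.3, 54.3 and 45.3 in untreated cells. The glucosamine values exceeded the untreated ones without passing the test (log2 fold change 0.70, 95% interval -0.04 to 1.44, adjusted p = 0.25).

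Xbp1, whose spliced and unspliced mRNA are not told apart here, read 1074, 1112, 971 and 1073 with glucosamine plus IL-1β, 1041 and 1078 with glucosamine alone, 991, 937, 886 and 1088 with IL-1β alone, and 882, 932 and 947 in untreated cells. Both glucosamine arrays were above the untreated arrays, yet the difference was small and not called (log2 fold change 0.20, 95% interval 0.01 to 0.40, adjusted p = 0.18). Mbtps1 encodes the protease S1P and gave 454, 466, 440.2 and 522 with glucosamine plus IL-1β, 484 and 482 with glucosamine alone, 382, 379, 418 and 473 with IL-1β alone, and 508, 557 and 512 in untreated cells. Its mean was lowest with IL-1β alone, where it fell by 0.35 on the log2 scale relative to untreated (SE 0.08, adjusted p = 0.0088). Mbtps2, for the protease S2P, showed 166, 198, 154 and 132 with glucosamine plus IL-1β, 179 and 169.6 with glucosamine alone, 229, 184, 168 and 132 with IL-1β alone, and 155, 152 and 155 in untreated cells. No comparison called it, and the interval for glucosamine alone against untreated was -0.26 to 0.61.

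All 9 chaperones and partners rose with glucosamine alone, from 1.53-fold for the lectin chaperone Canx to 5.02-fold for Hyou1. Hyou1, the ER chaperone GRP170 that exchanges the nucleotide of BiP and carries both ERSE-II copies shown above, measured 1215, 983, 1079.7 and 709.6 with glucosamine plus IL-1β, 827 and 1117 with glucosamine alone, 162, 213, 299 and 254 with IL-1β alone, and 214, 176 and 186 in untreated cells. The ranges with and without glucosamine were well apart, and the fold had an adjusted p of 9.1e-05 (2.33 on the log2 scale, SE 0.26). A further probe set of Hyou1 gave a log2 fold change of 2.43 (adjusted p = 0.0013).

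Sdf2l1, a partner of the J-protein ERdj3, measured 2088, 2225, 1878 and 1802 with glucosamine plus IL-1β, 1819 and 1778 with glucosamine alone, 732, 659, 724 and 651 with IL-1β alone, and 447, 437 and 446 in untreated cells. Its 4 groups formed 3 levels, with both glucosamine groups highest, IL-1β alone between and untreated cells lowest, and the fold for glucosamine alone was 4.06 (log2 fold change 2.02, SE 0.09, adjusted p = 1.4e-07). Dnajc3, the J-protein P58IPK and known as an inhibitor of PERK, had 2031, 2217, 1857 and 1804 with glucosamine plus IL-1β, 1989 and 1873 with glucosamine alone, 699, 593, 593 and 548 with IL-1β alone, and 578, 616 and 608 in untreated cells. Glucosamine separated the arrays completely, while IL-1β arrays and untreated arrays overlapped, and the fold was 3.21 (log2 fold change 1.68, SE 0.11, adjusted p = 1.5e-06).

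Dnajb11, which encodes ERdj3, read 1295, 1505, 1229.5 and 1360.3 with glucosamine plus IL-1β, 1382 and 1229 with glucosamine alone, 563, 522, 495 and 530.1 with IL-1β alone, and 447, 515 and 501 in untreated cells. Its fold was 2.68 (log2 fold change 1.42, SE 0.10, adjusted p = 2.3e-06), again with no overlap between cells with and without glucosamine. Dnajb9, ERdj4, a J-protein that assists BiP in degradation, read 875, 1098, 936 and 1313 with glucosamine plus IL-1β, 1008 and 959 with glucosamine alone, 577, 632, 622 and 829 with IL-1β alone, and 456, 425 and 445 in untreated cells. Glucosamine alone was 2.23-fold above untreated (adjusted p = 7.0e-04), and IL-1β alone was also above it, by 1.49-fold (adjusted p = 0.011).

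Hspa5, which encodes BiP, the main ER chaperone and the usual marker of the response, had one of the smaller folds. It averaged 3993 ± 31.3 with glucosamine alone (SD, n = 2) and 2313 ± 157 in untreated cells (SD, n = 3), a fold of 1.73 (log2 fold change 0.79, SE 0.13, adjusted p = 0.0012). Hsp90b1, the chaperone GRP94, averaged 3992 ± 2.94 and 1950.0 ± 55.0 in the same groups, a fold of 2.05 (adjusted p = 2.8e-04). The lectin chaperones Calr and Canx rose 1.57-fold and 1.53-fold (adjusted p = 0.0045 and 0.0100). The Calr call was lost without glucosamine replicate b (adjusted p = 0.059) and that of Canx without either glucosamine array (adjusted p up to 0.076). Of the 2 other probe sets of Canx, 1 was called up, at 0.50 (adjusted p = 0.0050), and the other was not, at 0.65 (adjusted p = 0.13) on the log2 scale.

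**Figure D3:**
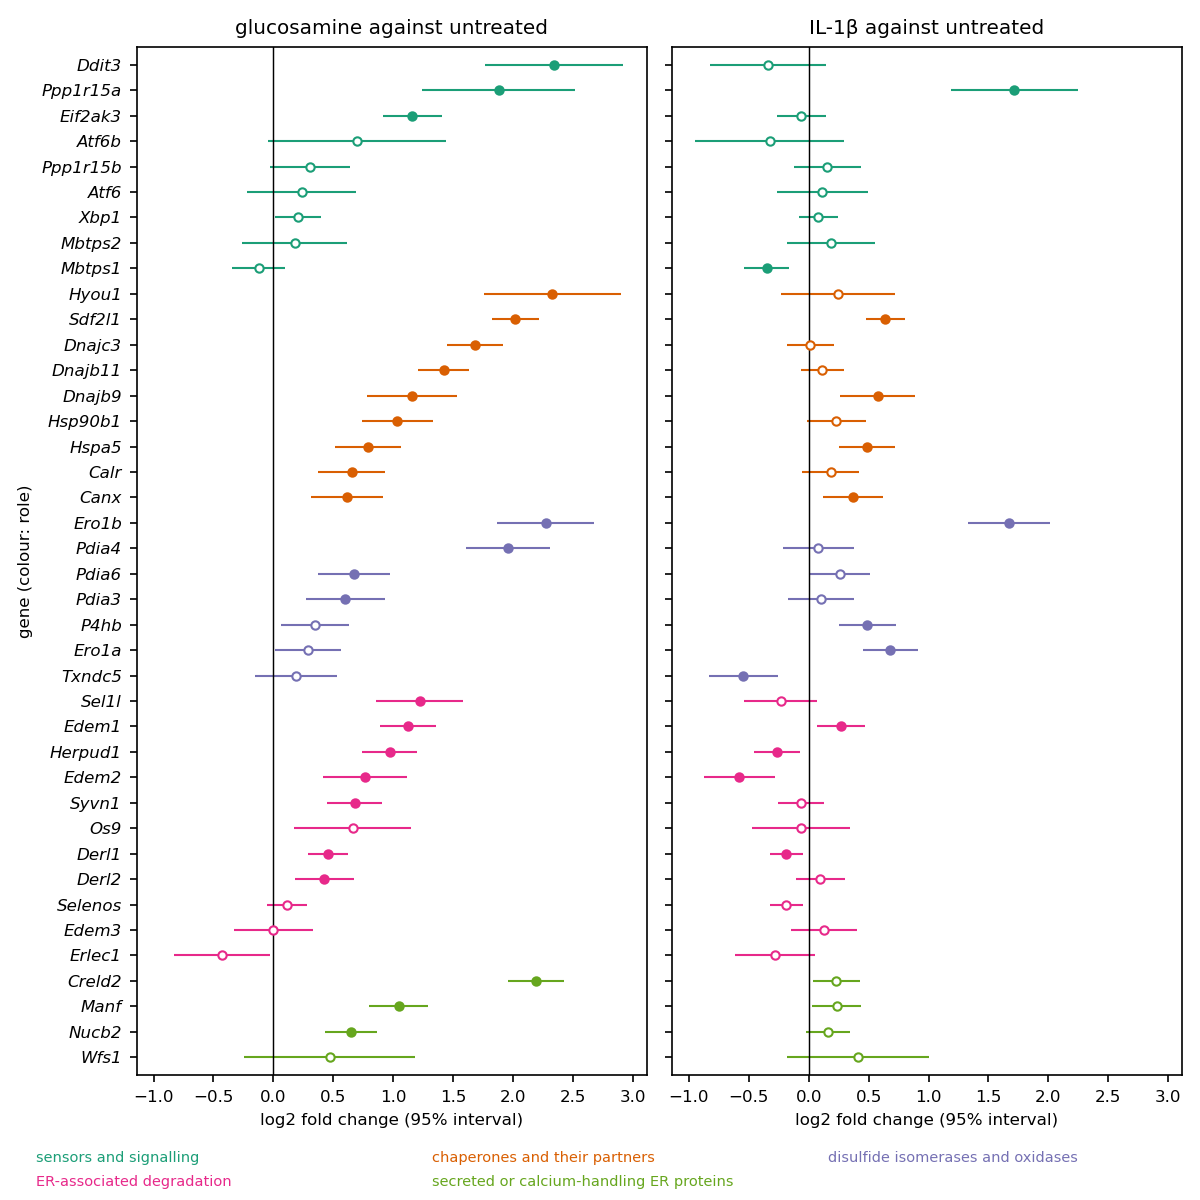
Log2 fold change with its 95% interval for the 40 measured genes, for glucosamine alone (left) and IL-1β alone (right) against the same 3 untreated arrays (filled, adjusted p under 0.05; open, not called). Glucosamine called 26 genes up, and IL-1β called 9 up and 5 down.

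Of the disulfide isomerases and oxidases, which form and reshuffle disulfide bonds in the ER, 4 of 7 rose with glucosamine alone. Ero1b, one of the oxidases that recharge protein disulfide isomerases, gave 184, 172, 191 and 134 with glucosamine plus IL-1β, 173 and 174 with glucosamine alone, 146, 105, 121 and 92.5 with IL-1β alone, and 37.0, 34.2 and 36.8 in untreated cells. Untreated cells were lowest by a wide margin and all treated groups were apart from them, with a fold of 4.83 for glucosamine alone (log2 fold change 2.27, SE 0.19, adjusted p = 8.5e-06). Pdia4, the isomerase ERp72, gave 3551, 3768, 2973 and 3373 with glucosamine plus IL-1β, 3037 and 3211 with glucosamine alone, 705, 741, 924 and 1081 with IL-1β alone, and 832, 786 and 793 in untreated cells. Its arrays fell into those with glucosamine and those without, and the fold was 3.89 (log2 fold change 1.96, SE 0.16, adjusted p = 8.8e-06).

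Pdia6, an isomerase known as P5, measured 3202, 3592, 2769 and 3647 with glucosamine plus IL-1β, 3056 and 2855 with glucosamine alone, 2308, 2071, 2015 and 2528 with IL-1β alone, and 1685, 1883 and 2003 in untreated cells, which is 1.59-fold higher for glucosamine alone against untreated (adjusted p = 0.0053). Pdia3, the isomerase ERp57 that works with calnexin and calreticulin, measured 3416, 3521, 2904 and 3779 with glucosamine plus IL-1β, 2888 and 2991 with glucosamine alone, 1824, 1845, 2128 and 2621 with IL-1β alone, and 1866, 1910.3 and 2042 in untreated cells, and the fold was 1.52 (adjusted p = 0.019). In both genes the glucosamine arrays lay above the untreated arrays. Without glucosamine replicate a the adjusted p of Pdia6 was 0.059, and Pdia3 lost its call without either glucosamine array or untreated replicate a or b (adjusted p up to 0.13), although its other probe set gave 1.26 (adjusted p = 2.5e-05) on the log2 scale. P4hb, the classical disulfide isomerase and a subunit of collagen prolyl 4-hydroxylase, did not pass the test (log2 fold change 0.35, 95% interval 0.06 to 0.63, adjusted p = 0.11), nor did Ero1a (log2 fold change 0.29, 95% interval 0.02 to 0.57, adjusted p = 0.18) or Txndc5, the isomerase ERp46 (log2 fold change 0.19, 95% interval -0.16 to 0.53, adjusted p = 0.64).

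Of the 11 measured genes of ER-associated degradation, 7 rose with glucosamine alone, by 1.34 to 2.33-fold. Sel1l, the scaffold of the HRD1 ubiquitin ligase, measured 417, 491, 470.3 and 512 with glucosamine plus IL-1β, 549.8 and 457 with glucosamine alone, 137, 184, 205 and 214 with IL-1β alone, and 208, 212 and 225 in untreated cells. Cells with glucosamine were clear of those without it, and the fold was 2.33 (log2 fold change 1.22, SE 0.17, adjusted p = 3.7e-04). Syvn1, which encodes that ligase, measured 262, 257, 253 and 297 with glucosamine plus IL-1β, 271 and 312 with glucosamine alone, 160.1, 159, 189 and 189 with IL-1β alone, and 176, 181 and 189 in untreated cells. It rose 1.60-fold (log2 fold change 0.68, SE 0.11, adjusted p = 0.0010), without overlap.

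Herpud1, the membrane protein HERP that organises the ligase complex, read 1532, 1788, 1401 and 1598 with glucosamine plus IL-1β, 1619 and 1619 with glucosamine alone, 614, 664, 721 and 763 with IL-1β alone, and 825, 822 and 832 in untreated cells. Every array with glucosamine was above every array without it. The fold was 1.96 (log2 fold change 0.97, SE 0.10, adjusted p = 7.1e-05), while IL-1β alone lay below untreated cells. Edem1, a mannosidase-like protein that marks glycoproteins for degradation, read 811, 909, 839 and 1021 with glucosamine plus IL-1β, 1044 and 970.4 with glucosamine alone, 592, 553, 487 and 601 with IL-1β alone, and 452, 474 and 459.9 in untreated cells. Its fold was 2.18 (log2 fold change 1.12, SE 0.11, adjusted p = 2.8e-05). The related Edem2 read 170.5, 182, 175 and 136 with glucosamine plus IL-1β, 179.6 and 186 with glucosamine alone, 57.2, 71.3, 85.9 and 76.3 with IL-1β alone, and 103, 110.4 and 109.6 in untreated cells. It was highest with glucosamine and lowest with IL-1β alone, and its fold for glucosamine alone was 1.70 (adjusted p = 0.0069, and 0.065 without glucosamine replicate b).

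Derl1 and Derl2, derlins of the channel through which proteins leave the ER, rose 1.37-fold and 1.34-fold (adjusted p = 0.0014 and 0.024). The call of Derl2 was lost without glucosamine replicate a or any 1 of the 3 untreated arrays (adjusted p up to 0.27), and its other probe set was not called, at 0.33 (adjusted p = 0.28) on the log2 scale. Of the 2 other probe sets of Derl1, 1 was called up, at 0.44 (adjusted p = 0.019), and the other was not, at 0.30 (adjusted p = 0.17). Os9, a lectin that hands glycoproteins to the ligase, did not pass (log2 fold change 0.66, 95% interval 0.17 to 1.15, adjusted p = 0.075), nor did Selenos (log2 fold change 0.12, 95% interval -0.05 to 0.28, adjusted p = 0.46). Erlec1, the other such lectin, had the most negative change of the set, with 519.9, 588, 522 and 489 with glucosamine plus IL-1β, 606 and 576 with glucosamine alone, 883, 717, 573 and 508 with IL-1β alone, and 756, 825 and 809 in untreated cells. It did not pass for glucosamine alone (log2 fold change -0.43, 95% interval -0.83 to -0.03, adjusted p = 0.17), whereas its other probe set was called down at -0.32 (adjusted p = 0.037) on the log2 scale. Edem3 stayed near the floor and cannot be ranked.

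The secreted and calcium-handling group was led by Creld2, an ER stress-inducible protein that cartilage cells can secrete, with 2172, 2398, 1999 and 2328 with glucosamine plus IL-1β, 2192 and 1912 with glucosamine alone, 556, 526, 460.4 and 572 with IL-1β alone, and 426, 467 and 454 in untreated cells. The 6 arrays with glucosamine were far above the other 7, and the fold for glucosamine alone was 4.56 (log2 fold change 2.19, SE 0.11, adjusted p = 2.5e-07). Manf, a small secreted protein that binds BiP, had 2402, 2753, 2187 and 2295 with glucosamine plus IL-1β, 2367 and 2126 with glucosamine alone, 1154, 1221, 1336 and 1417 with IL-1β alone, and 1034, 1101 and 1127 in untreated cells. Its fold was 2.06 (log2 fold change 1.05, SE 0.11, adjusted p = 6.4e-05), without overlap. Nucb2, a calcium-binding protein, had 1053, 1222, 973 and 1144 with glucosamine plus IL-1β, 1155 and 1078 with glucosamine alone, 881, 789, 749 and 775 with IL-1β alone, and 670.2, 733 and 733 in untreated cells. It rose 1.57-fold (adjusted p = 9.1e-04). Wfs1, the ER membrane protein wolframin, gave a low signal throughout, with 31.3, 26.3, 30.1 and 27.6 with glucosamine plus IL-1β, 21.1 and 30.3 with glucosamine alone, 20.5, 20.5, 37.3 and 22.2 with IL-1β alone, and 23.0, 17.6 and 15.0 in untreated cells, and did not pass (log2 fold change 0.47, 95% interval -0.24 to 1.18, adjusted p = 0.50).

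IL-1β alone changed fewer of these genes and in both directions. Relative to the same untreated arrays, 9 of 40 were called up and 5 down, beside 11.1% up and 13% down over all probe sets. The share called down was thus close to that over all probe sets, and the share called up was higher. The shares over the array were not counted by gene here. The median log2 fold change was 0.12, beside 0.10 over all probe sets. By role, 4 of 9 chaperones, 3 of 7 disulfide isomerases and oxidases, 1 sensor or signalling gene and 1 degradation gene were called up. Called down were 1 sensor or signalling gene, 1 disulfide isomerase or oxidase and 3 degradation genes. The log2 fold change was positive in all 9 chaperones and negative in 8 of 11 degradation genes. Ppp1r15a and Ero1b had the largest folds, 3.29 and 3.19 (log2 SE 0.24 and 0.16, adjusted p = 2.4e-04 and 7.8e-06). Ero1a rose 1.60-fold (adjusted p = 4.6e-04), with 501, 391, 543 and 413 with IL-1β alone against 290.2, 285 and 282 in untreated cells. Its other probe set was not called, at 0.36 (adjusted p = 0.38) on the log2 scale.

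Smaller increases with IL-1β alone were found for Sdf2l1 (1.56-fold, adjusted p = 5.8e-05), Dnajb9, Hspa5 (1.40-fold, adjusted p = 0.0050) and P4hb (1.40-fold, adjusted p = 0.0055). The call of Canx (1.29-fold, adjusted p = 0.035) was lost without any 1 of 7 arrays, with an adjusted p of up to 0.13. Edem1 (1.20-fold, adjusted p = 0.0496) was lost without any 1 of 10 arrays, with an adjusted p of up to 0.15, and 1 of its other probe sets was called down, at -0.64 (adjusted p = 0.050) on the log2 scale.

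The 5 genes that fell with IL-1β alone, beside 13% down over all probe sets, were Edem2, Txndc5, Mbtps1, Herpud1 and Derl1. Edem2 fell by 0.58 (SE 0.13, adjusted p = 0.0074) and Txndc5 by 0.55 on the log2 scale (SE 0.13, adjusted p = 0.0090), with Txndc5 at 742, 845, 859.6 and 1149 with IL-1β alone against 1233, 1313 and 1346 in untreated cells. Mbtps1 was given above. Herpud1 and Derl1 fell by 0.26 and 0.19 (adjusted p = 0.048 and 0.048). These calls were lost without any 1 of 10 arrays for Herpud1 and any 1 of 11 for Derl1, with an adjusted p of up to 0.13 and 0.18. Neither Ddit3 nor Eif2ak3 passed with IL-1β alone (log2 fold change -0.34, 95% interval -0.82 to 0.14, adjusted p = 0.34, and log2 fold change -0.06, 95% interval -0.27 to 0.14, adjusted p = 0.68).

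**Figure D4:**
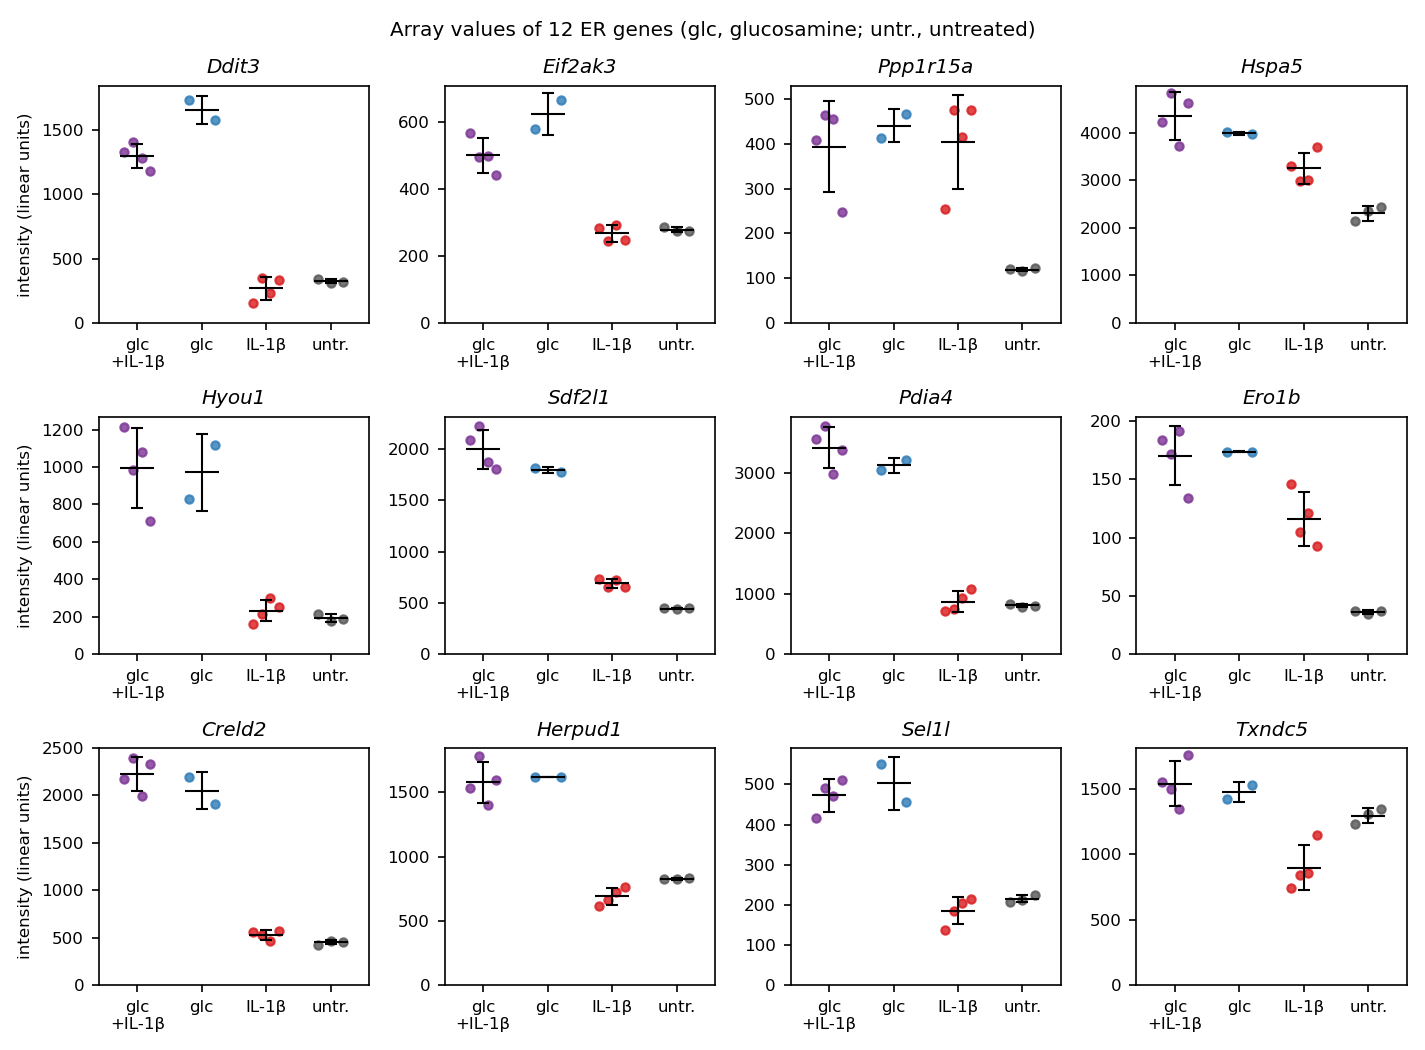
Intensity of 12 genes on each array (points), with the mean and SD of each group (bar and whiskers; n = 4, 2, 4 and 3 from left to right). Most genes separate arrays with glucosamine from arrays without it. Ppp1r15a, Ero1b, Sdf2l1 and Hspa5 are also raised with IL-1β alone, where Txndc5 is lowest.

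The comparison of glucosamine plus IL-1β with IL-1β alone asks what glucosamine did in cells that also received the cytokine, on arrays that the comparison with untreated cells did not use. Here 29 of 40 genes were called up and none down, beside 11.9% up and 11.4% down over all probe sets, and the median log2 fold change was 0.63, beside 0.03. Of the 26 genes that rose with glucosamine alone, 25 rose here too, 25 of the 29 called here. Ppp1r15a was the exception (log2 fold change -0.04, 95% interval -0.53 to 0.46, adjusted p = 0.97). Atf6b, Os9, Selenos and Txndc5 were called here and missed the threshold with glucosamine alone, and the interaction, which tests the difference between the 2 comparisons, was not called for any of these 4. In Txndc5 the values were 1556, 1501, 1348 and 1764 with glucosamine plus IL-1β against 742, 845, 859.6 and 1149 with IL-1β alone, without overlap (log2 fold change 0.79, SE 0.12, adjusted p = 5.1e-04).

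Ddit3 was 5.05-fold higher with both agents than with IL-1β alone (adjusted p = 6.4e-06), Hyou1 4.32-fold (1.3e-05), Creld2 4.21-fold (1.8e-08), Pdia4 4.00-fold (4.3e-07) and Sdf2l1 2.88-fold (4.2e-08). Groups did not overlap in 25 of the 29 genes. The 29 genes were selected by their call, and the share without overlap over all called probe sets was not counted. The groups overlapped in Atf6b, Canx, Ero1b and Os9, whose adjusted p were 0.023, 0.034, 0.014 and 0.017. Leaving out single arrays removed the calls of Atf6b (5 of 13 arrays), Canx (6), Selenos (5) and Os9 (2, glucosamine plus IL-1β replicate c and IL-1β replicate b), with adjusted p up to 0.069, 0.10, 0.084 and 0.053.

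The comparison of glucosamine plus IL-1β with glucosamine alone asks what the cytokine did in cells that already had glucosamine. No gene was called in either direction (limma), beside 0.933% up and 0.861% down over all probe sets, and the smallest adjusted p was 0.285. At an unadjusted p under 0.05, 1 gene was higher and 1 lower, and the methods' analysis of variance with Tukey's test called 2 lower, Ddit3 and Eif2ak3. Their log2 fold changes in limma were -0.35 (SE 0.25, adjusted p = 0.82) and -0.32 (SE 0.11, adjusted p = 0.29), and in both genes all 4 arrays with both agents lay below both arrays with glucosamine alone. The 95% intervals of 35 of the 40 genes lay within 1.5-fold in either direction, and over all 40 the bounds ran from -0.90 to 0.86 on the log2 scale. The intervals of the other 5 genes reached beyond 1.5-fold.

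Cells with both agents, set against untreated cells, had 29 genes up and 1 down, beside 11.5% up and 12.4% down over all probe sets, with a median of 0.76 beside 0.13. The gene that fell was Erlec1, by 0.59 on the log2 scale (SE 0.15, adjusted p = 0.014, and up to 0.055 without untreated replicate b or c). Its other probe set fell by 0.47 (adjusted p = 7.3e-04). P4hb, Ero1a and Os9, which missed the threshold with glucosamine alone, rose here by 0.55, 0.62 and 0.59 on the log2 scale (adjusted p = 0.0026, 9.3e-04 and 0.039). The difference between both agents and glucosamine alone was not called for any of the 3 (adjusted p = 0.82, 0.37 and 0.94). The Os9 call was lost without any 1 of 7 arrays (adjusted p up to 0.14). The other probe sets of Ero1a and Os9 were not called, at 0.31 (adjusted p = 0.45) and 0.92 (adjusted p = 0.095) on the log2 scale.

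Whether the response to IL-1β differed with and without glucosamine was tested as an interaction, the log2 change with IL-1β on glucosamine minus that on untreated cells. It called 3 of 40 genes, all negative, beside 4.57% negative and 3.98% positive over all probe sets. Counting both directions, the number called was near the share over the array. In Ppp1r15a IL-1β gave a log2 fold change of -0.20 on glucosamine and 1.72 on untreated cells, an interaction of -1.92 (SE 0.37, adjusted p = 0.0063). In Ero1b the changes were -0.04 and 1.67, an interaction of -1.71 (SE 0.23, adjusted p = 6.5e-04). For Sdf2l1 they were 0.15 and 0.64, an interaction of -0.49 (SE 0.11, adjusted p = 0.019) that was lost without glucosamine replicate a or b or untreated replicate b (adjusted p up to 0.097). In all 3 genes untreated cells had the lowest values. With both d arrays left out 7 genes were called in place of 3, these 3 among them, and without those arrays the counts of the other comparisons stayed within 1.5 times.

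**Figure D5:**
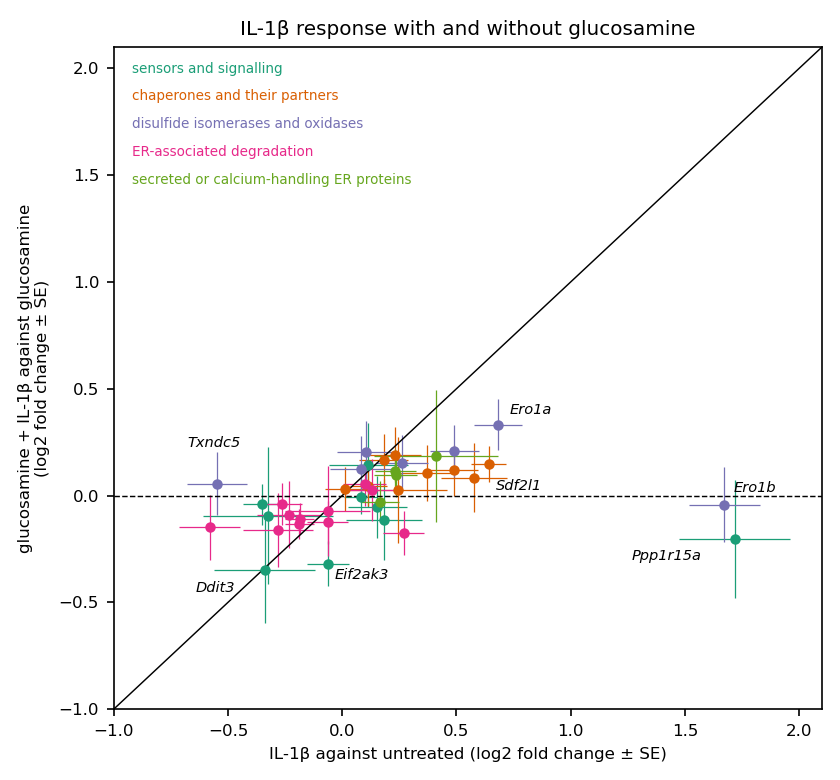
Log2 fold change with IL-1β on glucosamine (glucosamine plus IL-1β against glucosamine alone) plotted against that on untreated cells (IL-1β alone against untreated), with SE bars, for the 40 measured genes. The solid line marks equal responses, and Ppp1r15a and Ero1b lie far below it, near 0 on the vertical axis.

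Genes of the same pathways outside the set gave a mixed picture. Of 30 other ER folding genes, 7 rose and none fell with glucosamine alone, beside 7.14% up and 7.56% down over all probe sets, with a median log2 fold change of 0.16. The largest changes were in the prolyl isomerases Fkbp2 (953 against 486 in untreated cells, 1.96-fold, adjusted p = 4.5e-05) and Fkbp11 (1.90-fold, adjusted p = 1.1e-04), in Txndc11 (1.95-fold, adjusted p = 0.022) and in Uggt1, the glucosyltransferase that senses misfolded glycoproteins (1.78-fold, adjusted p = 0.0039). With IL-1β alone 1 rose and 10 fell, beside 11.1% up and 13% down over all probe sets. Serpinh1, the collagen chaperone HSP47, averaged 1302 with IL-1β alone and 2342 in untreated cells (log2 fold change -0.86, SE 0.13, adjusted p = 3.4e-04), and Fkbp14 averaged 181 and 356 (log2 fold change -0.99, SE 0.11, adjusted p = 4.8e-05). With both agents against IL-1β alone, 16 rose and 1 fell, beside 11.9% up and 11.4% down over all probe sets, led by Pdia5 (2.56-fold, adjusted p = 9.4e-05) and Fkbp2 (2.40-fold, adjusted p = 3.3e-07).

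Of 21 other degradation genes tested, 5 rose and 1 fell with glucosamine alone (median 0.29), beside 7.14% up and 7.56% down over the array, with Nploc4, a cofactor of the extracting ATPase p97, 1.74-fold higher (adjusted p = 9.4e-04) and Aup1 1.69-fold higher (adjusted p = 6.0e-04). In the same list 3 rose and 2 fell with IL-1β alone, near the shares of 11.1% up and 13% down over the array, Ngly1, which strips glycans from extracted proteins, falling the most (log2 fold change -0.72, SE 0.07, adjusted p = 8.5e-06). With both agents against IL-1β alone 7 rose and 2 fell, beside 11.9% and 11.4%.

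The 15 genes of the PERK-ATF4 branch showed 6 up and none down with glucosamine alone (median 0.41), 5 up and 7 down with IL-1β alone, and 10 up and 2 down with both agents against IL-1β alone. The shares over all probe sets were 7.14% up and 7.56% down, 11.1% and 13%, and 11.9% and 11.4% in these comparisons. Atf3, a stress-induced transcription factor, averaged 309 with glucosamine alone, 303 with IL-1β alone and 27.8 in untreated cells, an 11.1-fold and a 10.6-fold difference (adjusted p = 1.1e-06 and 5.9e-08). Trib3, a target of ATF4 and CHOP, averaged 1248 with both agents, 1346 with glucosamine alone, 416 with IL-1β alone and 627 in untreated cells. It was 2.14-fold higher with glucosamine alone than untreated (adjusted p = 9.0e-04). Gdf15, a secreted stress cytokine, averaged 81.4, 79.8, 423 and 5.81 in the same order of groups, with untreated cells near the floor, so no fold is given. Chac1, which degrades glutathione, was 3.25-fold higher with both agents than with IL-1β alone (adjusted p = 1.0e-05). The cystine transporter Slc7a11 averaged 250 with IL-1β alone and 60.7 in untreated cells (log2 fold change 2.03, SE 0.10, adjusted p = 2.8e-08). With both agents it averaged 78.5, lower than with IL-1β alone (log2 fold change -1.66, SE 0.09, adjusted p = 1.2e-07).

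Among 12 measured genes for other ER stress transducers and cell death, 1 rose and 2 fell with glucosamine alone, beside 7.14% up and 7.56% down over all probe sets, so the count up was near that of the array. Creb3l1, a membrane-bound factor related to ATF6 in its activation, averaged 175 with glucosamine alone, 121 with IL-1β alone and 354 in untreated cells, and was lower in both (log2 fold change -1.03, SE 0.13, adjusted p = 2.1e-04 for glucosamine, log2 fold change -1.55, SE 0.11, adjusted p = 7.0e-07 for IL-1β). Casp12, an ER-associated caspase of rodents, averaged 188 with glucosamine alone, 114 with IL-1β alone and 340.3 in untreated cells (log2 fold change -0.86, SE 0.09, adjusted p = 8.3e-05 for glucosamine, log2 fold change -1.58, SE 0.08, adjusted p = 4.6e-08 for IL-1β). Nfe2l1, which raises proteasome genes, was 1.77-fold higher with glucosamine alone (adjusted p = 0.026). With IL-1β alone 2 of these genes rose and 4 fell, beside 11.1% and 13%, and with both agents against IL-1β alone 2 rose and 1 fell, near the 11.9% and 11.4% over the array.

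For 11 of the 40 genes, 14 further probe sets could be set beside the one used. Their calls were the same as that of the probe set used in 10 of 14 for glucosamine alone, 6 of 14 for IL-1β alone, 13 of 14 for both agents against IL-1β alone, 14 of 14 for both agents against glucosamine alone, 9 of 14 for both agents against untreated cells, and 13 of 14 for the interaction. The 1 call of opposite sign was that of Edem1 with IL-1β alone, given above.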

How the data were processed

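RNA from each flask was hybridised to its own Affymetrix Rat Genome 230 2.0 array. The deposited values are linear signal intensities, which the authors estimated for each probe set with the Probe Profiler program and scaled to a common global level, from images read with Microarray Suite (MAS5). Some intensities are negative. Arrays that failed quality control were left out by the authors. Of 31099 rows, 57 control probe sets were removed. Intensities were raised to a floor of 5.71 (the 25th percentile of all values), which shrinks the folds of weak genes. The 1779 probe sets with no value above it were not tested. The 29263 others were fitted on the log2 scale with limma 3.58.1 in R 4.3.3, with 1 mean per group, a variance trend and 9 residual degrees of freedom, and p-values were adjusted by the Benjamini-Hochberg method over all of them. Each gene was read from its probe set with the highest mean log2 intensity, using probe sets that GEO's platform annotation gives to 1 gene only (20826; 436 had several genes and 9780 had none listed). The procedure was tested on simulated data. Deviations from the group means were correlated between arrays of the same letter. Between glucosamine plus IL-1β and IL-1β alone all 4 such pairs correlated (r = 0.38, 0.45, 0.53 and 0.80 for a, b, c and d), but unlike letters among a, b and c correlated as well (0.33 to 0.56) while d against a, b or c gave -0.67 to -0.47. In the other group pairs the letters did not pair the arrays. The precision is limited by the 2 to 4 arrays per group.

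The genes, roles and lists were chosen with earlier results of these data known. Array values are given for every sensor or signalling gene, for up to 5 called genes of each other role with the largest change with glucosamine alone, and for genes with a called interaction. Those of Erlec1, Wfs1, Txndc5 and Ero1a were added after their values were seen. From each list of other genes up to 4 called genes with the largest change were eligible to be named. Alternatives covered the floor, the scaling, the filter, the variance trend, the methods' analysis of variance with Tukey's test, fits of 2 groups alone, a replicate block, another choice of probe set and the removal of arrays. Promoters and motif positions came from RefSeq (GRCr8). Proteins were not used here.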

Additional observations from a re-analysis of the deposited data

Results flagged for a closer look

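Among 80 groups of 4 arrays examined, 1 array stood apart from its group. Wfs1 read 37.3 on IL-1β replicate c, whereas the other 3 arrays with IL-1β alone read 20.5 to 22.2. Chance flags about 1 in 20 such groups.

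The response to IL-1β on glucosamine and on untreated cells differed by the interaction test (limma) in 3 genes. All 3 interactions were negative, beside 4.57% negative and 3.98% positive over all probe sets tested. Counting both directions, the number called was near the share over the array. The interaction was -1.92 for Ppp1r15a, -1.71 for Ero1b and -0.49 for Sdf2l1 on the log2 scale, and in each the IL-1β change was smaller in size on glucosamine.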

How the results depend on the processing

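The counts of genes called kept within 1.5 times for every alternative to the floor, the scaling, the filter, the variance trend, the 2-group fits and the choice of probe set. The methods' analysis of variance with Tukey's test called fewer genes, 17 for glucosamine alone against untreated, 2 for IL-1β alone against untreated, 17 for both agents against IL-1β alone and 17 for both agents against untreated, but 2 for both agents against glucosamine alone. That test keeps only genes with P under 0.0001, which 17 of 40 passed, while 32 passed at an adjusted p under 0.05. Of all 29263 probe sets tested, 3447 and 9029 passed the analysis of variance at these thresholds. Tukey's test and the fits of 2 groups alone are not defined for the interaction.

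Leaving out 1 array at a time gave 22 to 27, 10 to 14, 25 to 31 and 28 to 31 calls for glucosamine alone, IL-1β alone, both agents against IL-1β alone and both agents against untreated, none for both agents against glucosamine alone, and 2 to 4 for the interaction. Where 1 glucosamine array was left, it was taken to vary like the other groups. With the letter as a replicate block the counts were 27, 13, 30 and 31, none, and 6 for the interaction, in the same order. Over all groups 7 of 16 same-letter pairs correlated above 0.1, and all 4 did between glucosamine plus IL-1β and IL-1β alone, where the block lost none of the 29 calls. Without both replicate d arrays the interaction called 7 genes. No share over all probe sets is given for the counts under these alternatives. Taking the probe set with the largest variance turned the IL-1β changes of Canx and Edem1 to -0.31 and -0.64 on the log2 scale. The cause was not tested.

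The 2 arrays of glucosamine alone limit the comparisons that use them, and weak genes such as Wfs1 and Edem3 are limited by signal near the floor. The median of all probe sets moved from 0.10 as deposited to 0.01 after quantile normalization for IL-1β alone against untreated.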
